A study of Drosophila melanogaster with 23 samples.

Results

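The vacuolar ATPase of Drosophila melanogaster is encoded by genes whose FlyBase symbols begin with Vha. Of the 17714 genes listed in the count tables, 33 carried such a symbol, 13 for subunits of the V1 sector, 18 for subunits of the V0 sector and 2 for the accessory subunit Ac45. They encode 14 subunits, and several subunits have more than 1 gene (paralogs). The choice was made by symbol alone, so ATP6AP2, an accessory gene once named VhaM8.9, lies outside the set.

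RNA came from midguts of adult flies in 2 expression models, both carrying tubGal80ts (a temperature-sensitive block on Gal4) and kept at 25°C, where expression was constant. The ISC model used esgGal4, a driver active in intestinal stem cells and enteroblasts, and the ubiquitous model used armGal4. In each model the driver was crossed to UAS-OKSM (human Oct4, KLF4, Sox2 and Myc), to UAS-Sen (a peptide), to both (OKSM-Sen), or to UAS-TdTomato as WT control. The results of the study name the Drosophila foxo gene as the source of the peptide, whereas its methods name the Fork Head protein. The crosses, controls included, are listed with UAS-GFP, and the OKSM and Sen transgenes were inserted at a single landing site (attP2). The esgGal4 stock is also listed with UAS-dCas9.VPR, which is not listed for the armGal4 stock. Each group had 3 libraries, apart from ubiquitous Sen, which had 2 (replicates 2 and 3). The labels record a correction by which ISC Sen replicate 3 and ISC OKSM-Sen replicate 3 changed places, and the corrected labels were used. For the RNA, the sources used here give no sex, age or number of guts per library. The labels call the tissue of the esgGal4 samples intestinal stem cells, whereas the study describes dissected midguts. In those libraries the 7 stem cell and enteroblast markers summed to 75.8 to 200.1 CPM (reads scaled to library size, corrected by TMM) and the 9 enterocyte markers to 18079 to 60339 CPM, so enterocyte transcripts were abundant in every ISC library.

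The vacuolar ATPase is a rotary proton pump that uses ATP to acidify lysosomes, endosomes and secretory vesicles, and in some cells it sits in the plasma membrane and secretes acid. In the V1 sector, subunits A and B hydrolyse ATP and turn a shaft of D and F, while E, G, C and H hold the stator. In the V0 sector a ring of c and c'' proteolipids turns against subunit a, which guides the protons, d couples ring and shaft, and e and Ac45 are small or accessory parts. In the fly gut, copper cells of the middle midgut secrete acid through a pump at their apical membrane, and Malpighian tubules, which join the gut at its posterior end, are rich in the pump.

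Library totals were 14626936 to 18974759 reads in the ISC model and 33438269 to 46324866 in the ubiquitous model. TMM, which rescales each library so that most genes do not move, gave factors of 1.02 to 1.17 for the ISC construct libraries and 0.953 to 1.03 for ISC WT. With library totals in place of TMM (chosen after seeing the data), the median log2 fold change of all genes in the ISC model became 0.118 with OKSM, 0.114 with Sen and 0.193 with OKSM-Sen. Markers of other cell types also moved with the constructs. The 13 Malpighian tubule markers summed to 629.9 to 863.8 CPM in OKSM, 671.6 to 1307.6 CPM in Sen and 164.1 to 1370.8 CPM in OKSM-Sen, against 362.1 to 447.4 CPM in ISC WT, though only a few passed the test (2 higher and 1 lower in OKSM, 2 higher in Sen, and 2 higher and 1 lower in OKSM-Sen). Of the 7 stem cell and enteroblast markers, 4 rose with OKSM, 6 with Sen and 3 with OKSM-Sen, and none fell. Of 8 visceral muscle markers, 6 rose in OKSM and 2 each in Sen and OKSM-Sen, and they summed to 1985 to 3242 CPM in OKSM, 2138 to 2340.2 CPM in Sen and 1585 to 1944 CPM in OKSM-Sen, against 1537 to 1566 CPM in WT. Of 4 hindgut markers, 1 fell in OKSM and 2 in Sen. Of all genes tested, 32.3% were called for OKSM, 36.5% for Sen and 29.0% for OKSM-Sen. The tubule counts lay below these shares. The 15 testis markers summed to at most 0.328 CPM in any library. These are bulk libraries, in which fewer cells of a type and less RNA per cell cannot be told apart, and the part of these marker differences in the results below was not tested.

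A single gene carried nearly all the transcript of most subunits. Vha68-2 (A), Vha55 (B), Vha44 (C), Vha36-1 (D), Vha26 (E), Vha14-1 (F), Vha13 (G), VhaSFD (H), Vha16-1 (c), VhaPPA1-1 (c''), VhaAC39-1 (d), VhaM9.7-b (e) and VhaAC45 led their subunits, and Vha100-5 led subunit a. Levels between genes are given as TPM, which divides reads by transcript length and sums to the same total in each library. Vha68-2 made up 99.2% to 99.7% of the TPM of subunit A in every library, and Vha68-1 and Vha68-3 had the rest. Subunit e was less uneven, with 94.1% to 96.6% from VhaM9.7-b and 3.23% to 5.58% from VhaM9.7-c. In subunit a the transcript was spread over Vha100-5, Vha100-2 and Vha100-4, and a 4th paralog, Vha100-1, was as low as VhaM9.7-c (19.1 TPM for Vha100-1 and 26.6 TPM for VhaM9.7-c in ISC WT).

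In ISC WT, Vha16-1, the proteolipid of which each pump holds many copies, had 1547 ± 22.6 TPM, and Vha13, subunit G of the peripheral stalk, had 1472 ± 30.8 TPM (SD, n = 3). Vha68-2, the catalytic subunit, had 677 ± 21.9 TPM, and Vha26, of the same stalk, had 674 ± 5.82 TPM, and their libraries overlapped. Vha55 (562.7 ± 8.48 TPM), VhaM9.7-b (543 ± 66.2 TPM), Vha36-1 (519 ± 11.7 TPM) and Vha14-1 (475 ± 68.0 TPM) formed a run in which each gene overlapped the next. VhaAC45 (375 ± 11.1 TPM) stood apart from its neighbours in that order, above VhaAC39-1 (315 ± 3.61 TPM) and Vha44 (310.1 ± 13.0 TPM). VhaSFD (269 ± 8.59 TPM), VhaPPA1-1 (267 ± 13.2 TPM) and Vha100-5 (226 ± 23.2 TPM) closed the list of leading genes, again each overlapping the next. In ubiquitous WT the most abundant 2 genes were also Vha13 (1622 ± 201 TPM) and Vha16-1 (1342 ± 286 TPM), whose libraries overlapped. Relative to Vha55 in the same library, Vha13 stood at 2.62 ± 0.05 in ISC WT and 3.29 ± 0.03 in ubiquitous WT (ratio of TPM, SD, n = 3 each).

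Of the other genes, 10 averaged under 10 reads in both models and were not tested. They were Vha36-2, Vha36-3, Vha14-2, Vha100-3, Vha16-2, Vha16-3, Vha16-4, Vha16-5, VhaPPA1-2 and VhaM9.7-d. No library held a read of Vha100-3, Vha16-2 or Vha16-3, and the highest TPM among the others was 0.87, in Vha36-3. Vha68-3, VhaAC39-2, VhaM9.7-a and VhaAC45RP passed the filter in the ubiquitous model only, at no more than 3.2 TPM. This left 19 genes tested in the ISC model and 23 in the ubiquitous model. The plot of levels by gene shows the separation between leading genes and minor paralogs.

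**Figure D1:**
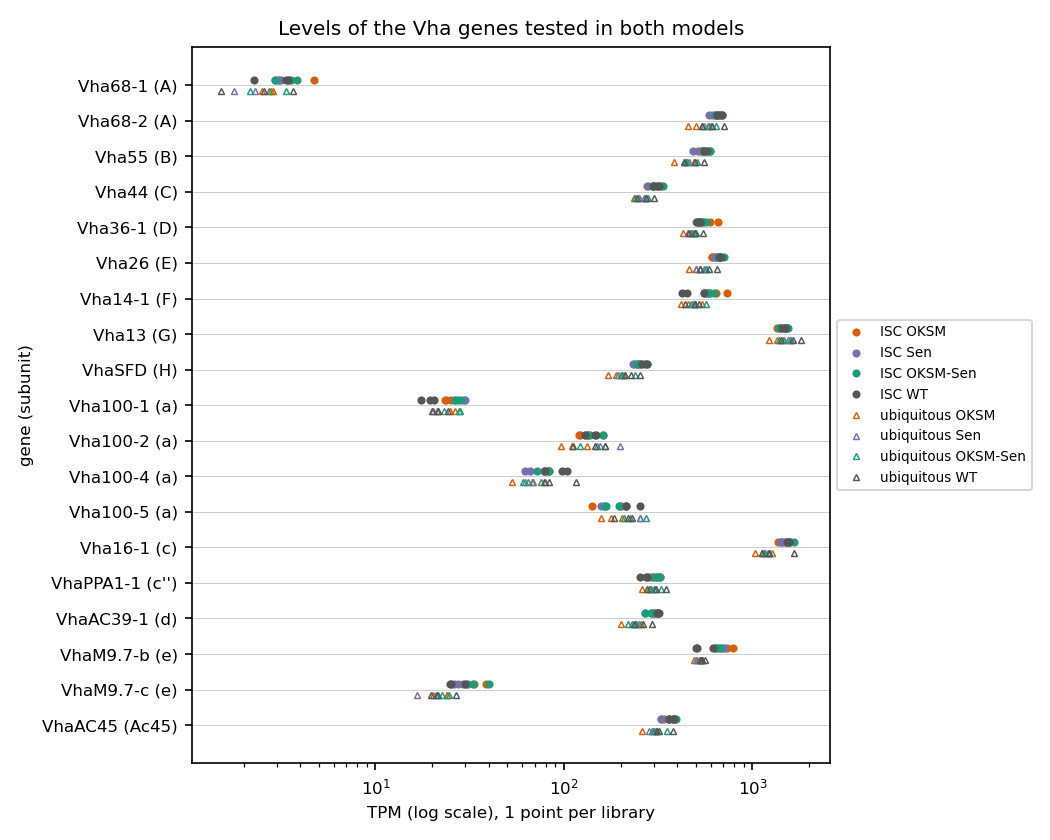
TPM of the 19 Vha genes tested in both models, on a log axis, with 1 point per library (filled circles for the ISC model, open triangles for the ubiquitous model, colours for the constructs). The leading gene of each subunit lies at 141 TPM or more in every library, while Vha68-1 stays at 4.74 TPM or less.

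Several paralogs lie side by side in the genome (coordinates of BDGP6.54, 1-based). Vha68-3 starts 178 bases after the end of Vha68-2 on chromosome arm 2L (12974322 to 12978607, plus strand). Vha100-4 (18386841 to 18389805) and Vha100-2 (18390323 to 18399169) lie on the minus strand of 3R with 517 bases between them. Vha100-1 lies apart on 3R (29131193 to 29137980, plus strand) and Vha100-5 on 2L (11738948 to 11744524, plus strand). Vha100-2 overlaps Vti1b on the opposite strand over 2175 bases, and Vha44 overlaps Hmgs over 548 bases. The sources used here do not say whether counting used the strand, so part of their reads cannot be told from those of the partner (mean 18.0 CPM for Vti1b and 63.8 CPM for Hmgs).

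In the ISC model the pump genes were lower with each construct than in WT in most cases, and among the 19 genes tested the largest change in each construct was in a Vha100 paralog of subunit a. In OKSM 9 of the 19 tested genes passed the test (FDR 10%, edgeR quasi-likelihood), 3 higher and 6 lower, beside 32.3% of all 9374 genes tested (17.3% higher, 15.0% lower). With Sen 12 passed, 1 higher and 11 lower, beside 36.5% of all genes (18.2% higher, 18.3% lower). With OKSM-Sen 9 passed, 1 higher and 8 lower, beside 29.0% of all genes (15.7% higher, 13.3% lower). The median log2 fold change of the 19 genes was -0.16 with OKSM (all genes 0.01), -0.25 with Sen (all genes -0.02) and -0.19 with OKSM-Sen (all genes 0.02). Every construct library lay below every WT library for 10 of the 19 genes in OKSM (20.1% of all genes), 12 in Sen (22.6%) and 13 in OKSM-Sen (19.6%). They lay above WT for 1 gene in each (20.2%, 22.8% and 20.3% of all genes).

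The number of calls depended on how libraries were scaled and on single libraries. With library totals, 3 genes were called in OKSM (3 higher), 4 in Sen (2 higher, 2 lower) and 3 in OKSM-Sen (1 higher, 2 lower), and calls over all genes became 2090 higher and 822 lower in OKSM, 2354 and 999 in Sen, and 2646 and 640 in OKSM-Sen, against 1618 and 1410, 1703 and 1714, and 1476 and 1243 with TMM. Scaling shifts all genes of a library alike, so the distance of the pump genes' median from that of all genes is set by construction and was -0.18 with OKSM, -0.23 with Sen and -0.21 with OKSM-Sen under both. Of the 30 calls, 9 were kept with library totals, namely Vha100-1 in each construct, Vha14-1 and VhaM9.7-b in OKSM, and Vha100-4 and Vha100-5 in Sen and in OKSM-Sen, and none of the 30 changed direction in any of the 20 alternatives. The count in OKSM fell to 1 when WT replicate 2 was left out, to 2 for OKSM replicate 3, to 3 for OKSM replicate 2 or WT replicate 1, and to 5 for OKSM replicate 1 or OKSM-Sen replicate 3. The count in OKSM-Sen was 3 without OKSM-Sen replicate 3, 4 without WT replicate 2 and 5 without OKSM-Sen replicate 1. In Sen it stayed between 8 and 14.

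**Figure D2:**
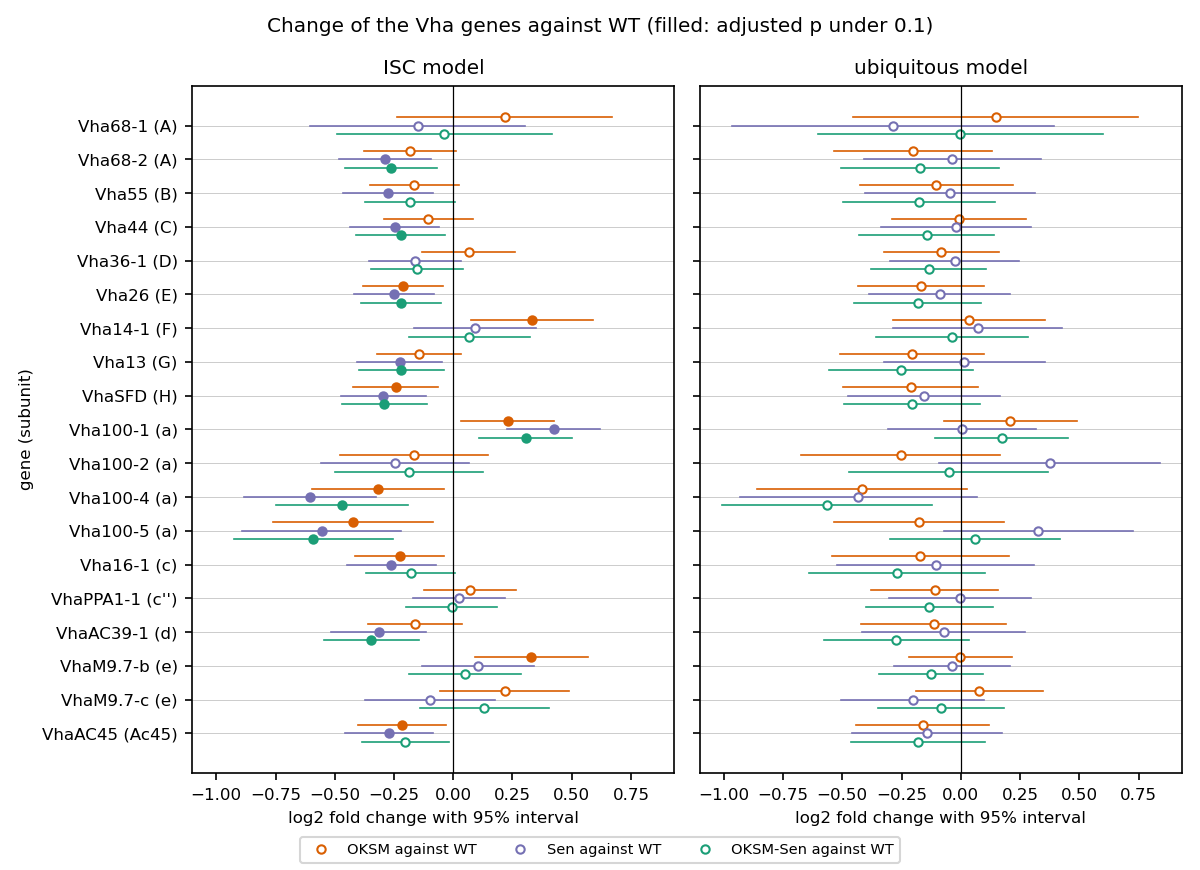
Log2 fold change against WT with its 95% interval for the 19 Vha genes tested in both models, in the ISC model (left) and the ubiquitous model (right), with filled points for adjusted p under 0.1. In the ISC model most points lie left of 0, Vha100-1 lies right of 0 in all 3 constructs, and no point of the ubiquitous model is filled.

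Vha68-2, the catalytic subunit A, fell in Sen and OKSM-Sen of the ISC model. It had 1737, 1608 and 1569 CPM in OKSM, 1526, 1649 and 1458 CPM in Sen and 1539, 1642 and 1489.5 CPM in OKSM-Sen libraries, against 1811, 1943 and 1892 CPM in WT libraries. All construct libraries were below all WT libraries. It fell by 18.2% in Sen (log2 fold change -0.29, SE 0.09, adjusted p = 0.0321) and by 16.6% in OKSM-Sen (log2 fold change -0.26, SE 0.09, adjusted p = 0.0579), whereas the value in OKSM was -0.18 (95% interval -0.38 to 0.01, adjusted p = 0.154). The Sen call was lost in 1 of 12 fits without 1 library (without Sen replicate 3, log2 -0.34 to -0.24 over all 12 fits and adjusted p up to 0.118), and the OKSM-Sen call was lost in 3 of 12 fits without 1 library (without OKSM-Sen replicates 1 or 3 or WT replicate 2, log2 -0.32 to -0.23 over all 12 fits and adjusted p up to 0.184).

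Vha55, subunit B and the nucleotide-binding partner of A, had 1437, 1342 and 1342 CPM in OKSM, 1274, 1373 and 1222 CPM in Sen and 1342, 1453 and 1289.6 CPM in OKSM-Sen libraries, against 1511, 1552 and 1606 CPM in WT libraries. Each construct library again lay below WT. Only the Sen difference passed (log2 fold change -0.28, SE 0.09, adjusted p = 0.0347), and the log2 fold change was -0.16 (95% interval -0.35 to 0.02, adjusted p = 0.188) in OKSM and -0.18 (95% interval -0.37 to 0.01, adjusted p = 0.157) in OKSM-Sen. That call was lost in 1 of 12 fits without 1 library (without Sen replicate 3, log2 -0.32 to -0.23 over all 12 fits and adjusted p up to 0.124).

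For Vha44, the clamp subunit C that leaves the complex when V1 and V0 come apart, there were 624, 544 and 569 CPM in OKSM, 491, 559 and 547 CPM in Sen and 551, 547 and 509.6 CPM in OKSM-Sen libraries, against 615, 652 and 623 CPM in WT libraries. OKSM overlapped WT, and Sen and OKSM-Sen lay wholly below it. Vha44 fell in OKSM-Sen (log2 fold change -0.22, SE 0.09, adjusted p = 0.0898) and was also called lower in Sen, by 15.7%. The OKSM-Sen call was lost in 8 of 12 fits without 1 library (without OKSM replicate 3, Sen replicates 2 or 3, OKSM-Sen replicates 1, 2 or 3 or WT replicates 1 or 2, log2 -0.25 to -0.19 over all 12 fits and adjusted p up to 0.253), and the Sen call was lost in 2 of 12 fits without 1 library (without Sen replicate 1 or WT replicate 2, log2 -0.28 to -0.20 over all 12 fits and adjusted p up to 0.163).

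The shaft genes were not called lower in any construct. Vha36-1, subunit D, had 578, 496 and 563 CPM in OKSM, 459, 511 and 450.2 CPM in Sen and 469, 489 and 454 CPM in OKSM-Sen libraries, against 509.6, 519 and 555 CPM in WT libraries. OKSM and Sen overlapped WT and OKSM-Sen lay below it, and the log2 fold changes were 0.06 (95% interval -0.13 to 0.26, adjusted p = 0.629), -0.16 (95% interval -0.36 to 0.03, adjusted p = 0.200) and -0.15 (95% interval -0.35 to 0.04, adjusted p = 0.249) in that order. Vha14-1, subunit F, had 312, 286 and 319 CPM in OKSM, 265, 262 and 260.2 CPM in Sen and 261, 266 and 239.7 CPM in OKSM-Sen libraries, against 207, 234 and 295 CPM in WT libraries. The WT values were widely spread, and each construct overlapped them. Vha14-1 rose in OKSM (log2 fold change 0.33, SE 0.12, adjusted p = 0.0612), a call lost in 4 of 12 fits without 1 library (without OKSM replicates 1 or 3 or WT replicates 1 or 2, log2 0.22 to 0.48 over all 12 fits and adjusted p up to 0.202). It did not pass in Sen, at 0.09 (95% interval -0.16 to 0.35, adjusted p = 0.589), or in OKSM-Sen, at 0.07 (95% interval -0.19 to 0.32, adjusted p = 0.714).

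Of the stator genes, Vha26 (E) had 1400.3, 1384 and 1357 CPM in OKSM, 1327, 1419 and 1344 CPM in Sen and 1383, 1416 and 1334 CPM in OKSM-Sen libraries, against 1546, 1633 and 1672 CPM in WT libraries. Every construct library was below WT, and the gene fell in OKSM (log2 fold change -0.21, SE 0.08, adjusted p = 0.0669), in Sen (log2 fold change -0.25, SE 0.08, adjusted p = 0.0321) and in OKSM-Sen (log2 fold change -0.22, SE 0.08, adjusted p = 0.0649). The OKSM call was lost in 3 of 12 fits without 1 library (without OKSM replicates 2 or 3 or WT replicate 2, log2 -0.24 to -0.19 over all 12 fits and adjusted p up to 0.152), the Sen call was lost in 1 of 12 fits without 1 library (without Sen replicate 3, log2 -0.28 to -0.23 over all 12 fits and adjusted p up to 0.101) and the OKSM-Sen call was lost in 3 of 12 fits without 1 library (without OKSM-Sen replicates 1 or 3 or WT replicate 2, log2 -0.25 to -0.20 over all 12 fits and adjusted p up to 0.197).

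Vha13 (G), its partner in the peripheral stalk, had 790.1, 738 and 748 CPM in OKSM, 686, 739.8 and 756 CPM in Sen and 722, 778 and 669.7 CPM in OKSM-Sen libraries, against 815, 865 and 863 CPM in WT libraries. The construct libraries did not reach the WT range. Vha13 fell in OKSM-Sen (log2 fold change -0.22, SE 0.08, adjusted p = 0.0815) and by 14.5% in Sen, while OKSM was at -0.14 (95% interval -0.32 to 0.03, adjusted p = 0.222). The OKSM-Sen call was lost in 8 of 12 fits without 1 library (without OKSM replicate 2, Sen replicates 2 or 3, OKSM-Sen replicates 1 or 3 or WT replicates 1, 2 or 3, log2 -0.29 to -0.17 over all 12 fits and adjusted p up to 0.265), and the Sen call was lost in 3 of 12 fits without 1 library (without Sen replicates 1 or 2 or WT replicate 2, log2 -0.25 to -0.19 over all 12 fits and adjusted p up to 0.172).

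VhaSFD, the regulatory subunit H, had 566, 535 and 511 CPM in OKSM, 515, 566 and 496 CPM in Sen and 536, 529 and 497 CPM in OKSM-Sen libraries, against 628, 652 and 648 CPM in WT libraries. All WT libraries were higher than all others. VhaSFD fell in OKSM (log2 fold change -0.24, SE 0.08, adjusted p = 0.0533), Sen (log2 fold change -0.29, SE 0.08, adjusted p = 0.0211) and OKSM-Sen (log2 fold change -0.29, SE 0.08, adjusted p = 0.0286). The call in Sen was kept in all 12 fits without 1 library (log2 -0.35 to -0.25), the OKSM call was lost in 3 of 12 fits without 1 library (without OKSM replicates 2 or 3 or WT replicate 2, log2 -0.29 to -0.20 over all 12 fits and adjusted p up to 0.147) and the OKSM-Sen call was lost in 1 of 12 fits without 1 library (without OKSM-Sen replicate 3, log2 -0.32 to -0.26 over all 12 fits and adjusted p up to 0.109). Vha68-1, the minor paralog of subunit A, was at 4.85 to 13.3 CPM over all libraries and passed no test.

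Paralogs of subunit a changed in opposite directions. Vha100-1, known for its role at synapses, had 80.9, 74.6 and 66.7 CPM in OKSM, 86.7, 82.5 and 88.8 CPM in Sen and 71.8, 82.0 and 81.2 CPM in OKSM-Sen libraries, against 62.0, 68.7 and 60.9 CPM in WT libraries. Sen and OKSM-Sen libraries were all above WT, and OKSM overlapped it. Vha100-1 rose by 34.2% in Sen (log2 fold change 0.42, SE 0.09, adjusted p = 0.00559), by 23.6% in OKSM-Sen (log2 fold change 0.31, SE 0.09, adjusted p = 0.0332) and by 17.2% in OKSM (log2 fold change 0.23, SE 0.09, adjusted p = 0.0856). The Sen call was kept in all 12 fits without 1 library (log2 0.39 to 0.48), the OKSM-Sen call was lost in 2 of 12 fits without 1 library (without OKSM-Sen replicates 2 or 3, log2 0.26 to 0.36 over all 12 fits and adjusted p up to 0.108) and the OKSM call was lost in 8 of 12 fits without 1 library (without OKSM replicates 1 or 2, Sen replicates 2 or 3, OKSM-Sen replicates 2 or 3 or WT replicates 1 or 3, log2 0.15 to 0.30 over all 12 fits and adjusted p up to 0.250). None of the 4 neuronal markers tested was called in any of these comparisons. On the log2 scale their median stood at 0.39 for OKSM-Sen, 0.09 for OKSM and 0.001 for Sen. The 6 listed summed to 18.4 to 27.1 CPM among ISC WT libraries. For OKSM, Sen and OKSM-Sen these sums ran from 22.2 to 25.8, 21.8 to 25.0 and 21.8 to 33.2 CPM. The part of neurons in the rise of Vha100-1 was not tested.

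Vha100-4, which the list of copper cell markers itself holds, had 242, 226 and 218 CPM in OKSM, 178, 223 and 170.2 CPM in Sen and 180.0, 224 and 217 CPM in OKSM-Sen libraries, against 287, 323 and 256 CPM in WT libraries. Every construct library lay below WT. It fell by 34.3% in Sen (log2 fold change -0.61, SE 0.13, adjusted p = 0.00559), by 27.7% in OKSM-Sen (log2 fold change -0.47, SE 0.13, adjusted p = 0.0250) and by 19.8% in OKSM (log2 fold change -0.32, SE 0.13, adjusted p = 0.0924). The Sen call was kept in all 12 fits without 1 library (log2 -0.73 to -0.52), the OKSM-Sen call was lost in 1 of 12 fits without 1 library (without WT replicate 2, log2 -0.55 to -0.38 over all 12 fits and adjusted p up to 0.102) and the OKSM call was lost in 6 of 12 fits without 1 library (without OKSM replicates 2 or 3, Sen replicate 1, OKSM-Sen replicate 3 or WT replicates 1 or 2, log2 -0.40 to -0.23 over all 12 fits and adjusted p up to 0.282). The other 2 markers of that list moved beside it. In edgeR lab fell in OKSM and Sen, with a log2 fold change of -0.55 and -0.62 (adjusted p = 0.0167 and 0.00727), and was not called in OKSM-Sen. Ptx1 fell in all 3, with -0.35 with OKSM, -0.17 with Sen and -0.19 with OKSM-Sen (adjusted p = 0.00367, 0.0650 and 0.0580). Their part in the fall of Vha100-4 was not tested.

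Vha100-5, the most abundant paralog of subunit a, had 410.3, 577 and 537 CPM in OKSM, 526, 458 and 424 CPM in Sen and 414, 523 and 425 CPM in OKSM-Sen libraries, against 613, 651 and 801 CPM in WT libraries. The WT libraries were all higher, with WT replicate 3 the highest. It fell by 33.6% in OKSM-Sen (log2 fold change -0.59, SE 0.15, adjusted p = 0.0206), by 32.0% in Sen (log2 fold change -0.56, SE 0.15, adjusted p = 0.0206) and by 25.4% in OKSM (log2 fold change -0.42, SE 0.15, adjusted p = 0.0674). The OKSM-Sen call was kept in all 12 fits without 1 library (log2 -0.72 to -0.47), the Sen call was kept in all 12 fits without 1 library (log2 -0.65 to -0.43) and the OKSM call was lost in 4 of 12 fits without 1 library (without OKSM replicates 1 or 3 or WT replicates 2 or 3, log2 -0.52 to -0.30 over all 12 fits and adjusted p up to 0.190). Of 9 enterocyte markers, 2 were lower and 2 higher in Sen, beside 36.5% of all genes called. The 9 markers summed to 31322 to 37844 CPM in Sen, against 43372 to 60339 CPM in WT, and their part was not tested.

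Vha100-2, the neighbour of Vha100-4, had 533, 392 and 348 CPM in OKSM, 403, 428 and 393 CPM in Sen and 451, 409 and 399 CPM in OKSM-Sen libraries, against 475, 512 and 460.4 CPM in WT libraries. OKSM overlapped WT through OKSM replicate 1 alone, and Sen and OKSM-Sen lay below WT. No construct passed, with log2 fold changes of -0.17 (95% interval -0.48 to 0.14, adjusted p = 0.422) in OKSM, -0.25 (95% interval -0.56 to 0.06, adjusted p = 0.217) in Sen and -0.19 (95% interval -0.50 to 0.12, adjusted p = 0.379) in OKSM-Sen.

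**Figure D3:**
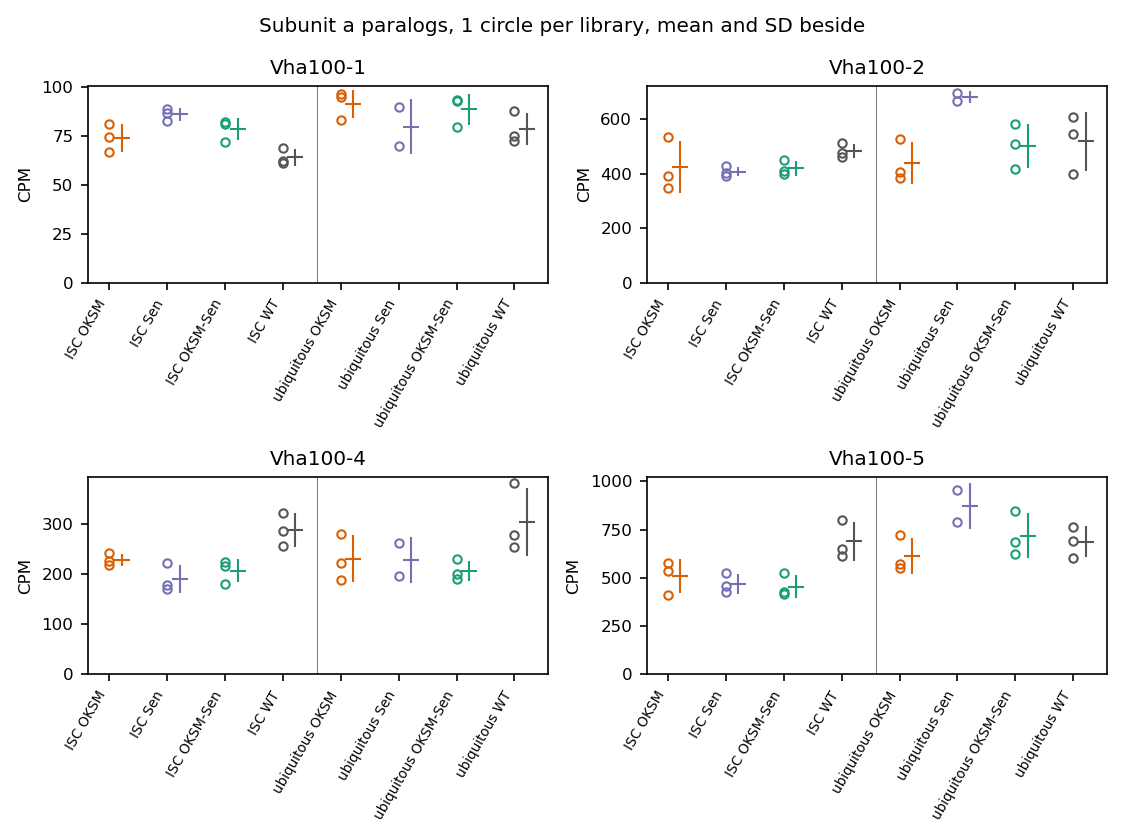
CPM (TMM-scaled) of the 4 detected Vha100 paralogs in each library (circles) with the mean and SD of each group beside them, the ISC model left of the grey line and the ubiquitous model right of it. In the ISC model Vha100-4 and Vha100-5 are lower in all construct libraries than in WT, and Vha100-1 is higher in Sen and OKSM-Sen.

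As shares of the summed TPM of subunit a, which do not depend on scaling between libraries, Vha100-1 had 5.69% ± 0.39 with OKSM, 7.12% ± 0.67 with Sen and 6.44% ± 0.39 with OKSM-Sen, against 3.97% ± 0.29 in ISC WT (SD, n = 3 each). Its lowest construct share, 5.38%, was above its highest WT share, 4.19%. Vha100-5 had 43.3% ± 7.71 with OKSM, 42.8% ± 3.09 with Sen and 41.2% ± 2.78 with OKSM-Sen, against 47.1% ± 4.96 in WT, and the libraries overlapped. Vha100-4 had 19.2% ± 0.81, 17.1% ± 2.06 and 18.5% ± 1.64 in OKSM, Sen and OKSM-Sen, against 19.6% ± 2.57 in WT, again with overlap. Vha100-2 had 31.8% ± 6.64, 33.0% ± 1.43 and 33.9% ± 3.64 in the same order, against 29.3% ± 2.13 in WT. Vha100-3 had no read in any library.

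**Figure D4:**
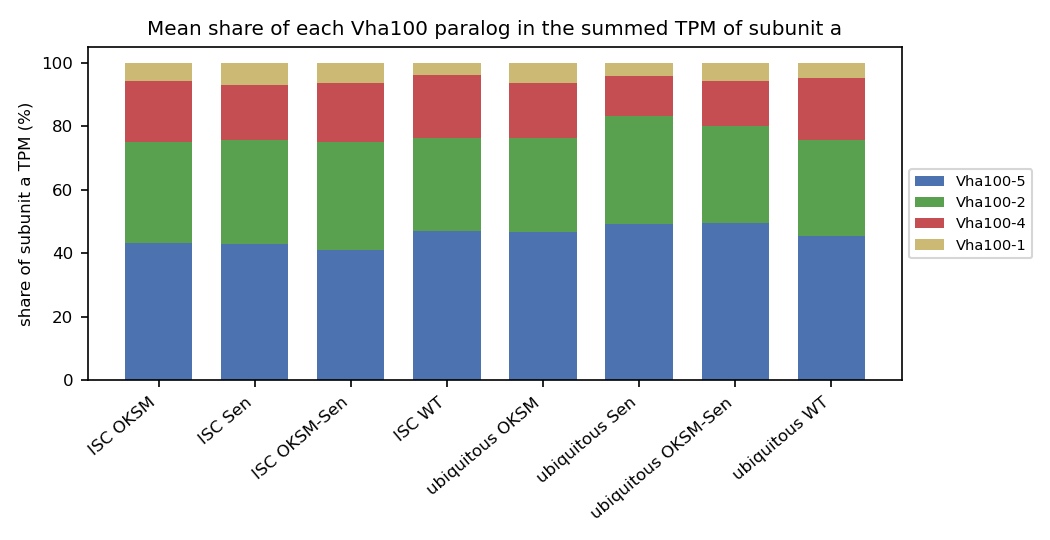
Stacked bars of the mean share (%) of each Vha100 paralog in the summed TPM of subunit a, for the 4 groups of the ISC model and the 4 of the ubiquitous model. The share of Vha100-1 is 5.69% to 7.12% in the ISC construct groups and 3.97% in ISC WT.

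The other V0 genes split between those that fell and those that did not. Vha16-1, the main proteolipid c, had 4395, 4158 and 4047 CPM in OKSM, 3987, 4232 and 4244 CPM in Sen and 4314, 4514 and 4228 CPM in OKSM-Sen libraries, against 4772, 5030.2 and 5096 CPM in WT libraries. It was lower in every construct library than in WT, and it fell in Sen (log2 fold change -0.26, SE 0.09, adjusted p = 0.0410) and OKSM (log2 fold change -0.23, SE 0.09, adjusted p = 0.0787), while OKSM-Sen was at -0.18 (95% interval -0.37 to 0.01, adjusted p = 0.163). The Sen call was lost in 2 of 12 fits without 1 library (without Sen replicate 1 or WT replicate 2, log2 -0.29 to -0.24 over all 12 fits and adjusted p up to 0.119), and the OKSM call was lost in 9 of 12 fits without 1 library (without OKSM replicates 2 or 3, Sen replicates 1, 2 or 3, OKSM-Sen replicates 1 or 3 or WT replicates 1 or 2, log2 -0.27 to -0.20 over all 12 fits and adjusted p up to 0.188).

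VhaPPA1-1, the c'' proteolipid, had 392, 378 and 376 CPM in OKSM, 386, 392 and 346 CPM in Sen and 356, 377 and 355 CPM in OKSM-Sen libraries, against 329, 383 and 391 CPM in WT libraries. All groups overlapped, and the log2 fold changes were 0.07 (95% interval -0.12 to 0.26, adjusted p = 0.589) in OKSM, 0.02 (95% interval -0.17 to 0.22, adjusted p = 0.859) in Sen and -0.01 (95% interval -0.20 to 0.19, adjusted p = 0.960) in OKSM-Sen.

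VhaAC39-1, subunit d between ring and shaft, had 552, 542 and 513 CPM in OKSM, 495, 512 and 458 CPM in Sen and 453, 528 and 439 CPM in OKSM-Sen libraries, against 567, 615 and 634 CPM in WT libraries. No construct library reached the WT range. VhaAC39-1 fell in OKSM-Sen (log2 fold change -0.35, SE 0.09, adjusted p = 0.0218) and Sen (log2 fold change -0.31, SE 0.09, adjusted p = 0.0252), and its value in OKSM was -0.16 (95% interval -0.36 to 0.04, adjusted p = 0.221). The OKSM-Sen call was kept in all 12 fits without 1 library (log2 -0.45 to -0.29), and the Sen call was kept in all 12 fits without 1 library (log2 -0.36 to -0.26).

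VhaAC39-2, the minor paralog of subunit d, is described here because of its values, since its mean over the ISC libraries was under the filter. It had 0, 0 and 0 reads in OKSM, 0, 0 and 1 reads in Sen and 0, 3 and 2 reads in OKSM-Sen libraries, against 14, 15 and 14 in WT libraries. Every construct library was far below WT, so the gene was left out of the test by its low counts in the constructs. Per scaled read WT was 13.5-fold higher than OKSM if the count of 0 is replaced by 3 reads over the group. The ratio to WT was 0 in OKSM (exact 95% interval 0 to 0.0949). It was 0.0231 in Sen (0.000572 to 0.136) and 0.109 in OKSM-Sen (0.0338 to 0.275), and these intervals cover counting error only. In the edgeR fit without the filter it was lower with OKSM (adjusted p = 0.00624), Sen (adjusted p = 0.00825) and OKSM-Sen (adjusted p = 0.0392), and none of the other 10 genes that only this fit tested was called. The ubiquitous libraries had 16, 6 and 4 reads of it in OKSM, 18 and 7 reads in Sen and 16, 12 and 12 reads in OKSM-Sen libraries, against 16, 25 and 26 in WT libraries.

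VhaM9.7-b, subunit e, went the other way in OKSM. It had 396, 373 and 379 CPM in OKSM, 346, 336 and 315 CPM in Sen and 309, 335 and 305 CPM in OKSM-Sen libraries, against 269.8, 289.9 and 364 CPM in WT libraries. OKSM libraries were above all WT libraries, and the others overlapped WT. VhaM9.7-b rose in OKSM (log2 fold change 0.33, SE 0.11, adjusted p = 0.0472), a call lost in 3 of 12 fits without 1 library (without OKSM replicate 1 or WT replicates 1 or 2, log2 0.24 to 0.47 over all 12 fits and adjusted p up to 0.165), and was at 0.11 (95% interval -0.13 to 0.34, adjusted p = 0.489) in Sen and 0.05 (95% interval -0.19 to 0.29, adjusted p = 0.773) in OKSM-Sen. VhaM9.7-b and Vha14-1, the other gene that rose in OKSM, have short transcripts (mean 700.0 and 659 bases). The median log2 fold change in OKSM was 0.10 over the 1766 tested genes shorter than 1000 bases and -0.00 over the 7608 others, and the part of length was not tested.

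VhaAC45, the accessory subunit, had 679, 641 and 668 CPM in OKSM, 645, 694 and 602 CPM in Sen and 665, 717 and 633 CPM in OKSM-Sen libraries, against 747, 804 and 785 CPM in WT libraries. Its construct libraries were all lower than WT. VhaAC45 fell in Sen (log2 fold change -0.27, SE 0.08, adjusted p = 0.0339) and OKSM (log2 fold change -0.22, SE 0.08, adjusted p = 0.0849), and OKSM-Sen was at -0.20 (95% interval -0.39 to -0.02, adjusted p = 0.112). In Sen the call was lost in 2 of 12 fits without 1 library (without Sen replicate 3 or WT replicate 2, log2 -0.32 to -0.22 over all 12 fits and adjusted p up to 0.125), and the OKSM call was lost in 9 of 12 fits without 1 library (without OKSM replicates 1, 2 or 3, Sen replicate 1, OKSM-Sen replicates 1 or 3 or WT replicates 1, 2 or 3, log2 -0.25 to -0.19 over all 12 fits and adjusted p up to 0.217). VhaM9.7-c, the minor paralog of subunit e, ranged over all libraries from 15.6 to 24.4 CPM and passed no test.

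Summed over the 14 leading genes, the ISC libraries held 13789 ± 418 CPM with OKSM, 13184 ± 448 CPM with Sen and 13432 ± 631 CPM with OKSM-Sen, against 15663 ± 657 CPM in WT (SD, n = 3 each). On the TPM scale the same sums were 8365 ± 519, 8046 ± 96.8 and 8523 ± 353, against 8233 ± 52.1 in WT. In CPM every construct library was below every WT library, whereas in TPM this held for Sen alone (7938 to 8126 in Sen, against 8190.0 to 8291 in WT), and OKSM and OKSM-Sen overlapped WT. The 8 V1 genes summed to 7118 ± 284, 6719 ± 311 and 6802 ± 318 CPM in OKSM, Sen and OKSM-Sen, against 7949 ± 269.9 CPM in WT. The 5 V0 genes summed to 6008 ± 147, 5818 ± 98.6 and 5958 ± 281 CPM, against 6935 ± 369 CPM in WT, and in both sectors every construct library was below every WT library. Most of the V0 sum was Vha16-1 (mean 4966 CPM in WT), and VhaPPA1-1 and VhaM9.7-b were called lower in no construct.

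**Figure D5:**
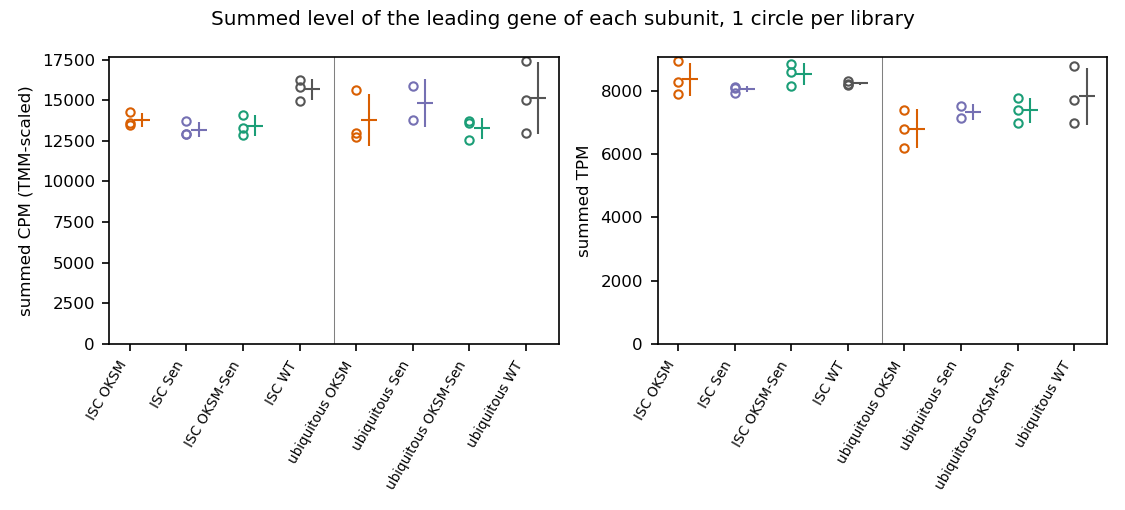
Summed level of the 14 leading Vha genes in each library (circles), with the mean and SD of each group beside them, as TMM-scaled CPM (left) and as TPM (right). In CPM the ISC construct libraries lie between 12867 and 14268, below the ISC WT libraries at 14941 to 16226, while in TPM only the Sen libraries (7938 to 8126) lie wholly below WT (8190.0 to 8291).

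Over the 4 conditions of the ISC model together, 8 of the 19 genes were called (35.7% of all genes), namely Vha68-2, Vha26, VhaSFD, Vha100-1, Vha100-4, Vha100-5, VhaAC39-1 and VhaAC45. DESeq2 called 14. The count was 3 without WT replicate 2, 4 without WT replicate 1, and 5 without Sen replicate 1 or 3 or OKSM-Sen replicate 1 or 3. The interaction asks whether OKSM-Sen differs from the sum of OKSM and Sen on the log2 scale. One gene passed, beside 21.9% of all genes. For Vha100-1 it was -0.35 (SE 0.13, adjusted p = 0.0893), lower than that sum, a call lost in 10 of 12 fits without 1 library (without OKSM replicates 1 or 2, Sen replicates 1, 2 or 3, OKSM-Sen replicates 1, 2 or 3 or WT replicates 1 or 3, log2 -0.42 to -0.27 over all 12 fits and adjusted p up to 0.171). The sign of Vha100-1 was not that of most pump genes, since 13 of the 19 had a positive interaction (median 0.15, all genes 0.03), and 6 had an unadjusted p under 0.05. Without WT replicate 3 the count was 4. DESeq2 called 7 genes, 5 positive (Vha55, Vha26, Vha100-4, Vha16-1 and VhaAC45) and 2 negative (Vha100-1 and VhaM9.7-b). With upper quartile scaling 5 were called, all positive, and Vha100-1 was not among them. Without the filter on low counts edgeR called VhaAC39-2 alone (8.74, adjusted p = 0.0232), a gene with few or no reads in the construct libraries.

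In the ubiquitous model no pump gene was called against WT. Of the 23 genes tested, 0 passed in OKSM (1.09% of all 9637 genes), 0 in Sen (2.48%), 0 in OKSM-Sen (1.16%), 0 in the interaction (1.06%) and 0 over the 4 conditions (2.61%) with edgeR. An unadjusted p under 0.05 was seen for 1 gene with OKSM, 1 with Sen and 1 with OKSM-Sen, and for 0 in the interaction and over the conditions, and DESeq2 called 0 in each. The median log2 fold change of the 23 genes was -0.11 with OKSM, -0.07 with Sen and -0.18 with OKSM-Sen, beside -0.00, -0.01 and -0.00 for all genes. The 95% intervals of the 14 leading genes spanned -0.54 to 0.36 in OKSM, -0.52 to 0.73 in Sen and -0.64 to 0.42 in OKSM-Sen. The test was also run on counts simulated for the OKSM comparison, with few genes changed and all others left unchanged. The changed genes were drawn from a wide range of levels, so the numbers recovered are not an estimate for the pump genes. In the real ISC data 32.3% of all genes were called for OKSM, so the adjustment over genes was less strict there than in the simulation. Of 100 genes given a log2 change of 0.5, edgeR called 4 in the ubiquitous model (9637 genes) and 21 in the ISC model (9374 genes), and of 100 given a change of 1 it called 57 and 78.

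In OKSM the smallest p values were those of VhaAC39-2, at -1.43 (95% interval -2.64 to -0.21, unadjusted p = 0.0259, adjusted p = 0.378), Vha100-4, at -0.42 (95% interval -0.86 to 0.03, unadjusted p = 0.0629, adjusted p = 0.525), and Vha100-1, at 0.21 (95% interval -0.07 to 0.49, unadjusted p = 0.128, adjusted p = 0.675). VhaAC39-2 is a minor paralog of subunit d with at most 0.73 TPM. In Sen they were those of VhaAC45RP, at -1.20 (95% interval -2.37 to -0.02, unadjusted p = 0.0465, adjusted p = 0.342), Vha100-4, at -0.43 (95% interval -0.93 to 0.07, unadjusted p = 0.0825, adjusted p = 0.431), and Vha100-5, at 0.33 (95% interval -0.07 to 0.73, unadjusted p = 0.0981, adjusted p = 0.458). In OKSM-Sen they were those of Vha100-4, at -0.57 (95% interval -1.01 to -0.12, unadjusted p = 0.0175, adjusted p = 0.378), VhaAC39-1, at -0.27 (95% interval -0.58 to 0.03, unadjusted p = 0.0759, adjusted p = 0.639), and Vha13, at -0.25 (95% interval -0.56 to 0.05, unadjusted p = 0.0930, adjusted p = 0.680). In the interaction they were those of VhaAC45RP, at 1.46 (95% interval -0.09 to 3.01, unadjusted p = 0.0617, adjusted p = 0.441), VhaAC39-2, at 1.47 (95% interval -0.36 to 3.29, unadjusted p = 0.103, adjusted p = 0.528), and Vha100-4, at 0.28 (95% interval -0.38 to 0.95, unadjusted p = 0.365, adjusted p = 0.772). Over the 4 conditions Vha100-4, Vha100-2 and Vha100-5 came first, and in edgeR their adjusted p values were 0.415, 0.416 and 0.470 (unadjusted p = 0.0748, 0.0752 and 0.103). These tests share the WT libraries.

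The levels behind these values were as follows for subunit a. In the ubiquitous model Vha100-1 had 83.1, 96.2 and 94.7 CPM in OKSM, 69.8 and 89.5 CPM in Sen and 79.3, 92.8 and 93.3 CPM in OKSM-Sen libraries, against 87.5, 74.8 and 72.5 CPM in WT libraries. Vha100-2 had 528, 383 and 405 CPM in OKSM, 697 and 665 CPM in Sen and 581, 507 and 417 CPM in OKSM-Sen libraries, against 609, 399 and 547 CPM in WT libraries. The libraries of Vha100-1 overlapped in every construct, and those of Vha100-2 only in OKSM and OKSM-Sen, since both Sen libraries were above WT. Vha100-4 had 281, 188 and 223 CPM in OKSM, 196 and 261 CPM in Sen and 190.5, 229 and 199 CPM in OKSM-Sen libraries, against 382, 254 and 278 CPM in WT libraries. Vha100-5 had 719.7, 548 and 573 CPM in OKSM, 789.5 and 956 CPM in Sen and 847, 625 and 684 CPM in OKSM-Sen libraries, against 603, 693 and 764 CPM in WT libraries. OKSM-Sen lay below WT for Vha100-4, and Sen lay above WT for Vha100-5, and the other groups of these genes overlapped WT.

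For the V1 genes of the ubiquitous model the libraries overlapped WT in every construct. Vha68-2 had 1891, 1462 and 1494 CPM in OKSM, 1717 and 1915 CPM in Sen and 1660.4, 1741 and 1507 CPM in OKSM-Sen libraries, against 2116, 1552 and 1847 CPM in WT libraries. Vha55 had 1549, 1219 and 1290.2 CPM in OKSM, 1303 and 1524 CPM in Sen and 1263, 1363 and 1206 CPM in OKSM-Sen libraries, against 1643, 1222 and 1451 CPM in WT libraries. WT replicate 1 was the highest library for both. Vha44 had 635, 543 and 534 CPM in OKSM, 530.3 and 603 CPM in Sen and 548, 532 and 466 CPM in OKSM-Sen libraries, against 636, 496 and 571 CPM in WT libraries. Vha36-1 had 563, 504 and 492 CPM in OKSM, 509 and 578 CPM in Sen and 523, 491 and 481 CPM in OKSM-Sen libraries, against 596, 489 and 551 CPM in WT libraries. WT replicate 1 was again the highest. Vha26 had 1478, 1282 and 1294 CPM in OKSM, 1361 and 1504 CPM in Sen and 1386, 1339 and 1263 CPM in OKSM-Sen libraries, against 1664, 1316 and 1531 CPM in WT libraries. Vha14-1 had 329.5, 251 and 250.4 CPM in OKSM, 259 and 311 CPM in Sen and 263, 284 and 237 CPM in OKSM-Sen libraries, against 287, 236 and 280.2 CPM in WT libraries. Unlike in the ISC model, Vha14-1 was not called in OKSM, with a log2 fold change of 0.04 (95% interval -0.28 to 0.36, adjusted p = 0.987). That interval holds the ISC value, and the difference between the models was not called. Vha13 had 1008, 824 and 847 CPM in OKSM, 965 and 1122 CPM in Sen and 874, 907 and 793 CPM in OKSM-Sen libraries, against 1141, 868 and 1049 CPM in WT libraries. VhaSFD had 589, 476 and 489 CPM in OKSM, 504 and 578 CPM in Sen and 499.6, 563 and 488 CPM in OKSM-Sen libraries, against 657, 531 and 595 CPM in WT libraries. Both were highest in WT replicate 1.

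Among the remaining V0 and accessory genes, Vha16-1 had 4723, 3827 and 3833 CPM in OKSM, 4017 and 4648 CPM in Sen and 3988, 3803 and 3703 CPM in OKSM-Sen libraries, against 5746, 3755 and 4305 CPM in WT libraries. VhaPPA1-1 had 458, 410.0 and 415 CPM in OKSM, 430.3 and 495 CPM in Sen and 421, 442 and 391 CPM in OKSM-Sen libraries, against 513, 395 and 464 CPM in WT libraries. For both genes no library was higher than WT replicate 1. VhaAC39-1 had 574, 444 and 492 CPM in OKSM, 473 and 567 CPM in Sen and 451, 472 and 421 CPM in OKSM-Sen libraries, against 603, 467 and 547 CPM in WT libraries. VhaM9.7-b had 351, 319 and 324 CPM in OKSM, 296 and 354 CPM in Sen and 317, 298 and 293 CPM in OKSM-Sen libraries, against 340.1, 318 and 328 CPM in WT libraries. VhaAC39-1 overlapped WT in every construct, and VhaM9.7-b lay just below WT in OKSM-Sen (317 CPM at the highest, against 318 CPM at the lowest in WT). VhaAC45 had 746, 621 and 661 CPM in OKSM, 642 and 732 CPM in Sen and 656, 718 and 614 CPM in OKSM-Sen libraries, against 849, 670.1 and 728 CPM in WT libraries, with overlap in every construct. Summed over the 14 leading genes, the ubiquitous libraries held 13777 ± 1596 CPM with OKSM, 14841 ± 1478 CPM with Sen (n = 2) and 13274 ± 633 CPM with OKSM-Sen, against 15137 ± 2196 CPM in WT (SD, n = 3 otherwise).

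Whether a construct acted differently in the 2 models was tested on the difference of its log2 fold changes, ISC minus ubiquitous, in a fit of all 23 libraries with 22 of the 33 genes tested. The models also differ in depth and in the genotype of the driver stock, and the labels do not say whether they were sequenced together. Driver, genetic background and sequencing run therefore cannot be told apart. For Sen 3 genes passed (27.3% of all 9602 genes), all of them paralogs of subunit a. VhaAC39-2 of subunit d was under the filter of this fit. It was called lower in the edgeR fits without the filter and with only the groups compared (log2 -4.22 in both, adjusted p = 0.0346 and 0.0345). Vha100-5 differed by -0.90 (SE 0.24, adjusted p = 0.0159), being lower with Sen in the ISC model and at 0.33 (95% interval -0.07 to 0.73, adjusted p = 0.458) in the ubiquitous model. Vha100-2 differed by -0.64 (SE 0.25, adjusted p = 0.0848) and Vha100-1 by 0.40 (SE 0.16, adjusted p = 0.0877). The Vha100-5 call was kept in all 23 fits without 1 library (log2 -1.03 to -0.75), the Vha100-2 call was lost in 11 of 23 fits without 1 library (without ubiquitous Sen replicates 2 or 3, ubiquitous WT replicate 2, ubiquitous OKSM-Sen replicate 2, ISC OKSM replicate 2, ISC Sen replicates 1, 2 or 3, ISC OKSM-Sen replicate 2 or ISC WT replicates 1 or 2, log2 -0.77 to -0.48 over all 23 fits and adjusted p up to 0.201), and the Vha100-1 call was lost in 7 of 23 fits without 1 library (without ubiquitous Sen replicate 2, ubiquitous WT replicate 1, ISC Sen replicates 1 or 3, ISC OKSM-Sen replicate 3 or ISC WT replicates 1 or 3, log2 0.24 to 0.59 over all 23 fits and adjusted p up to 0.398). Of the 13 Malpighian tubule markers, 4 were higher and none lower in this difference (median 2.67). Of 17 genes of copper cells and gastric ion transport, 1 was higher and 7 lower (median -0.48). Of 7 stem cell and enteroblast markers, 5 were higher and none lower (median 1.28). Of 29 lysosome and autophagy genes, 10 were higher and 2 lower (median 0.36). These counts stand beside 27.3% of all genes called, and the part of these genes was not tested. The number of Vha genes was 1 without ubiquitous Sen replicate 2, ISC Sen replicate 1 or 3, or ISC WT replicate 1.

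For OKSM 0 genes passed (4.12% of all genes) with edgeR, 1 had an unadjusted p under 0.05 and DESeq2 called 0, though 1 passed without ISC WT replicate 3. The smallest p values were those of VhaM9.7-b, at 0.30 (95% interval 0.01 to 0.59, unadjusted p = 0.0425, adjusted p = 0.248), Vha14-1, at 0.27 (95% interval -0.12 to 0.65, unadjusted p = 0.167, adjusted p = 0.463), and Vha100-5, at -0.28 (95% interval -0.76 to 0.21, unadjusted p = 0.246, adjusted p = 0.552). For OKSM-Sen 0 passed (1.46% of all genes), 1 had an unadjusted p under 0.05 and DESeq2 called 1. Vha100-5 was at -0.67 (95% interval -1.15 to -0.18, unadjusted p = 0.00970, adjusted p = 0.176), VhaM9.7-b at 0.16 (95% interval -0.13 to 0.45, unadjusted p = 0.263, adjusted p = 0.619) and VhaM9.7-c at 0.20 (95% interval -0.17 to 0.56, unadjusted p = 0.271, adjusted p = 0.626).

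Between the WT groups, ISC against ubiquitous, 2 of the 22 genes passed (20.7% of all genes), both lower in ISC WT. VhaPPA1-1 differed by -0.31 (SE 0.10, adjusted p = 0.0410) and Vha100-1 by -0.29 (SE 0.11, adjusted p = 0.0776). The VhaPPA1-1 call was lost in 2 of 23 fits without 1 library (without ubiquitous WT replicate 1 or ISC WT replicate 1, log2 -0.41 to -0.22 over all 23 fits and adjusted p up to 0.175), and the Vha100-1 call was lost in 4 of 23 fits without 1 library (without ubiquitous WT replicates 1 or 2 or ISC WT replicates 1 or 3, log2 -0.35 to -0.21 over all 23 fits and adjusted p up to 0.266). No gene passed without ubiquitous WT replicate 1 or ISC WT replicate 1. Here too driver, genetic background and sequencing run cannot be told apart.

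Over the libraries of a model, the log2(CPM + 0.5) of each leading gene, less its group mean, was compared with the mean of the other leading genes. These correlations are descriptions, since all genes of a library share its scaling and depth. In the ubiquitous model (11 libraries) Pearson's r was 0.99 for Vha13, 0.97 for Vha26 and 0.81 for VhaM9.7-b, the lowest but for Vha100-5, at 0.29. In the ISC model (12 libraries) r was 0.90 for Vha26, 0.88 for VhaAC39-1, 0.34 for Vha44 and 0.23 for Vha100-5. Vha100-1, which is not a leading gene, had r of 0.16 in the ubiquitous model and 0.04 in the ISC model.

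Genes that act with the pump gave mixed counts in the ISC model. Their counts stand beside 32.3% of all genes called for OKSM, 36.5% for Sen and 29.0% for OKSM-Sen. Of 17 genes of copper cells and gastric ion transport, OKSM lowered 6 and raised 1 (median log2 fold change -0.23), Sen lowered 8 and raised 1 (-0.17), and OKSM-Sen lowered 5 and raised 2 (-0.21). Among 29 lysosome and autophagy genes the numbers higher and lower were 11 and 2 for OKSM (median 0.15), 11 and 4 for Sen (0.11), and 7 and 2 for OKSM-Sen (0.03). Of 15 genes of TORC1 at the lysosome, which senses nutrients through the pump, the numbers were 4 and 3 for OKSM (median 0.08), 2 and 3 for Sen (-0.09), and 1 and 2 for OKSM-Sen (0.09). Of the 5 genes for pump assembly and its transcription factor, Rbcn-3A rose in OKSM, Sen and OKSM-Sen (log2 fold change 0.25, 0.30 and 0.21). In Sen bchs also rose (0.41) and Mitf, a regulator of pump and lysosome genes, fell by 0.17 on the log2 scale. Ubiquitous expression gave no call among the gastric, TORC1 or assembly genes in any construct. Of the 29 lysosome and autophagy genes, Arl8 fell in that model in Sen and in OKSM-Sen (log2 fold change -0.76 and -0.52) and Fuca in OKSM-Sen (-1.77).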

How the data were processed

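Midgut RNA of 23 libraries was analysed, 12 of the ISC and 11 of the ubiquitous model, with groups taken from the sample labels. The authors deposited expected counts and TPM per gene and library, estimated by RSEM (1.3.1) after alignment with STAR (2.7.1a) to dm6, per the submitters' processing notes. RSEM splits reads shared by several genes between them, so values of close paralogs are uncertain. Symbols were paired with 17587 gene IDs by ID and 76 by transcript IDs, Vha44 among them.

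Expected counts were rounded. After removal of 390 genes for rRNA, snoRNA and snRNA, those averaging at least 10 reads were kept. Each model was fitted with edgeR (4.0.16, R 4.3.3; TMM, glmQLFit robust, glmQLFTest), all 4 groups in 1 fit with a common spread, and Benjamini-Hochberg adjustment was over all genes tested, with calls at an FDR of 10%. Model differences came from a fit of all 23 libraries. DESeq2 (1.42.0) was an alternative. CPM used the TMM scale of all libraries. The test was checked on simulated data. No library was a duplicate of another replicate (lowest chi-square per gene 22.35). Nothing says that replicates came from separate cohorts, and p-values then measure only the spread between these samples.

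Full statistics are given for called genes (the 10 with the largest change where more passed) and, where none passed, for the 3 with the smallest unadjusted p, and levels per library for the leading gene of each subunit and the Vha100 paralogs. VhaAC39-2 in the ISC model was added after its values were seen. The members and gene lists were chosen with earlier results of these data known. The other settings tried were DESeq2 and its size factors, no filter on low counts, the replicate number as a block, other sets of libraries in the fit, leaving out each library and, chosen after seeing the data, library totals and upper quartile scaling. No promoter or protein sequence was analysed here.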

Additional observations from a re-analysis of the deposited data

Results flagged for a closer look

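The effect of Sen on 3 paralogs of subunit a differed between the models by a test of the difference itself (edgeR, adjusted over all 9602 genes, of which 27.3% were called, beside 13.6% of the 22 Vha genes). Vha100-5 differed by -0.90 (SE 0.24, adjusted p = 0.0159) on the log2 scale, ISC minus ubiquitous, Vha100-2 by -0.64 (SE 0.25, adjusted p = 0.0848) and Vha100-1 by 0.40 (SE 0.16, adjusted p = 0.0877). In the ISC model all 3 Sen libraries were below all 3 WT libraries for Vha100-5 and Vha100-2 (22.6% of all genes). They were above them for Vha100-1 (22.8% of all genes). In the ubiquitous model both Sen libraries were above all WT libraries for Vha100-5 and Vha100-2, and the libraries overlapped for Vha100-1. No Vha gene was called for Sen against WT in that model, and the share of all genes separated in this way was not counted there. The ubiquitous Sen group had 2 libraries. The Vha100-5 call was kept in all 23 fits without 1 library, while that of Vha100-2 was lost in 11 and that of Vha100-1 in 7. The fit with the replicate block kept Vha100-5 and Vha100-2 and did not call Vha100-1. Vha100-2 was also not called with library totals or without the filter on low counts. Vha100-1 was also not called with the upper quartile, without that filter or with only the groups compared. Over all 30 alternatives, the fits without 1 library included, Vha100-5 was kept in 30, Vha100-2 in 17 and Vha100-1 in 19. VhaAC39-2, under the filter here, was called lower in the last 2 of these settings.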

How the results depend on the processing

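No call of a Vha gene reversed its direction under any alternative run. Of the 30 calls against WT in the ISC model, 7 were kept in each fit without 1 library and 4 under all 20 alternatives. With DESeq2 the calls in the ISC model numbered 14 over the 4 conditions (8 in edgeR) and 7 in the interaction (1), and 1 in the OKSM-Sen difference between models (0). Without a filter on low counts OKSM in the ISC model had 4 (9) and the OKSM difference 1 (0). With library totals the ISC model had 4 over the conditions, 3 in OKSM, 4 in Sen (12), 3 in OKSM-Sen (9) and 2 in the interaction, the OKSM difference had 3 and WT against WT 1 (2). With the upper quartile the interaction had 5 and WT against WT 1. Fits of only the groups compared gave 0 for OKSM, 5 for Sen and 5 for OKSM-Sen in the ISC model, and WT against WT had 0. With all 23 libraries in 1 fit, OKSM in the ISC model had 5. The cause of these shifts was not tested, beyond the fewer libraries in the fit with only the groups compared.

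The replicate number as a block gave 5 calls in OKSM and 5 over the conditions in the ISC model, and in the interaction it called Vha100-4 (0.46) in place of Vha100-1. The numbers did not pair the libraries, since the deviations of same-numbered libraries correlated at -0.33 to 0.25 (median -0.01) in the ISC model and -0.37 to 0.47 (median 0.09) in the ubiquitous model. Leaving out each library gave 1 to 8 calls in OKSM, 8 to 14 in Sen, 3 to 9 in OKSM-Sen, 0 to 4 in the interaction and 3 to 9 over the conditions of the ISC model, 0 to 1 in the OKSM difference, 1 to 3 in the Sen difference and 0 to 3 in WT against WT. The ubiquitous model had 0 in each such fit.

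With library totals the share of higher genes among all genes called also moved by more than 10 points outside the ISC comparisons with WT. In the ubiquitous model it was 33.7% in OKSM (50.5% with TMM), 40.8% in Sen (51.5%), 63.5% in OKSM-Sen (51.8%) and 74.7% in the interaction (46.1%), and in the ISC interaction 34.9% (48.2%). In the differences between models it was 85.8% for OKSM (41.9%), 77.6% for Sen (52.0%) and 73.5% for OKSM-Sen (42.9%), and between the WT groups 67.2% (51.8%).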
